A study of Mus musculus with 6 samples.

Results

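The genes described here encode the secreted and membrane-bound metalloproteases of the extracellular matrix and their inhibitors: matrix metalloproteases (MMPs), the ADAMTS proteases and the ADAMTS-like (ADAMTSL) proteins, and the tissue inhibitors of metalloproteases (TIMPs). They were taken by name as every protein-coding gene in the files whose mouse symbol starts with Mmp, Timp or Adamts and a number, or with Adamtsl, after the Ensembl identifiers were matched to GENCODE M21. This gave 46 of 27263 genes: 20 Mmp, 17 Adamts, 5 Adamtsl and 4 Timp genes. Mmp1a carries the family letters but is annotated as a polymorphic pseudogene and was left out, and Mmp1b, Mmp20, Adamts8 and Adamts19 were not analysed here.

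MMPs and ADAMTS proteases are zinc enzymes made as inactive precursors. MMPs cut collagens, basement membrane proteins and many signalling proteins, ADAMTS proteases cut proteoglycans and trim procollagens, and ADAMTSL proteins share the ADAMTS scaffold without the catalytic part. TIMPs bind the active site of these enzymes and block it. In marrow and bone, stromal cells, osteoblasts, osteoclasts and macrophages each make different members, which take part in bone remodelling and in release of growth factors from the matrix.

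RNA was sequenced from primary bone marrow stromal cells of C57BL/6 mice, selected by sorting for Sca-1 and CD29 and against CD45 and CD11b, and grown with 10% serum. GCA cells received rGCA at 50 nM and PBS cells received PBS, in each case for 3 days, with 3 libraries per group. The labels do not spell out GCA. From knowledge of the study it is read here as grancalcin, which binds calcium and is made by myeloid cells, with rGCA as the recombinant protein. The labels do not say whether libraries came from separate animals or cultures, how many animals were pooled, or how old they were. The p-values therefore cover the spread among these libraries alone, and that spread may be technical.

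The values are FPKM, a fragment count scaled by exon length and by the library's total, and the totals behind them ran from 17543509 to 18645932 fragments. Each gene that averaged 1 FPKM or more across the libraries was tested (limma on log2(FPKM + 1)), and a gene passed when its p-value, adjusted over all 11984 such genes, was under 0.05. Of the sort markers, Ly6a (Sca-1) stood at 290.7 to 357.1 FPKM in GCA and 254.8 to 331.4 in PBS, and Itgb1 (CD29) at 295.3 to 336.1 in GCA and 336.5 to 367.9 in PBS. Ptprc (CD45) was not absent, at 12.9 to 14.5 FPKM in GCA and 12.0 to 13.2 in PBS, nor was Itgam (CD11b), at 24.9 to 40.9 in GCA and 36.7 to 43.1 in PBS. Macrophage transcripts were abundant in libraries labelled as stromal cells: 15 macrophage markers summed to 15686 to 16969 FPKM in GCA and 18252 to 20366 in PBS. Lyz2 set the direction of that sum, and the other 14 markers summed to 7278 to 7711 FPKM in GCA and 5627 to 6146 in PBS. C1qa, C1qb, C1qc and Cd68 made up most of the sum without Lyz2. Of the 15 markers, 7 rose, 1 (Lyz2) fell and 7 did not pass. Cd14 and Adgre1 leaned lower with GCA without passing. Cd14 was at 41.3 ± 17.3 FPKM in GCA and 76.3 ± 3.80 in PBS, with groups apart, and Adgre1 at 300 ± 105 and 355 ± 26.1. A change in bulk RNA can come from fewer cells of a type or from less RNA per cell, and the data cannot tell these apart.

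Of the 46 members, 27 were tested and 19 had a mean below 1 FPKM. Among the tested members 2 rose with GCA, Mmp27 and Adamtsl4, 3 fell, Mmp2, Adamts2 and Adamts12, and 22 did not pass. Over all genes tested, 17.9% passed, 11.5% higher and 6.43% lower with GCA, and the 5 members that passed make 18.5% of the members tested, so the families were called about as often as other genes. The split over all genes depended on scaling: 64.2% of calls were higher with GCA as fitted and 53.8% after quantile normalization, while the 5 members passed in both. By family, 1 Mmp gene rose and 1 fell of 13 tested, 2 of 9 Adamts genes fell, 1 of 2 Adamtsl genes rose, and none of 3 Timp genes passed. The median log2 fold change was -0.10 over the 27 members, against 0.0056 over all genes tested. A negative value was found in 48.4% of all genes tested and in 20 of the 27 members. That number was 20 after quantile normalization and 21 after median centring, where 54.4% and 52.0% of all genes had a negative value.

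**Figure D1:**
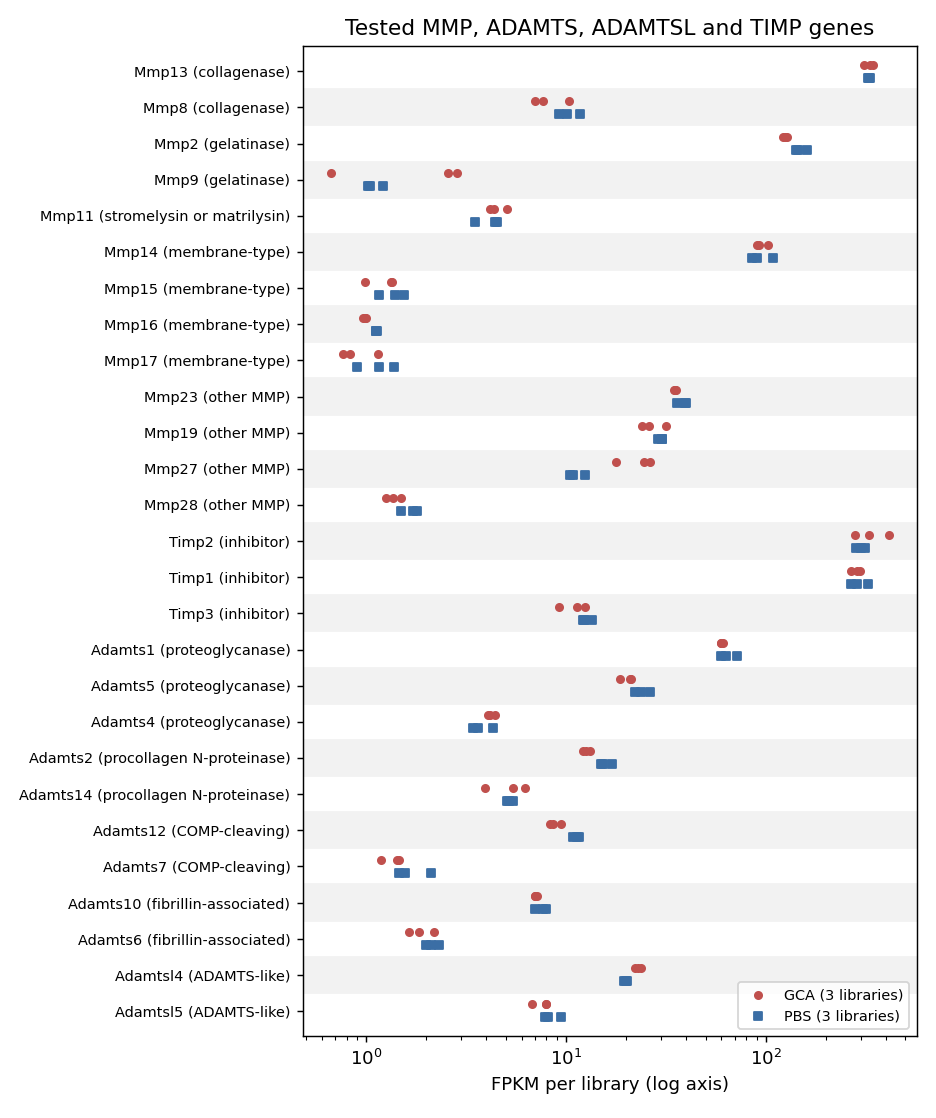
FPKM of each tested member (log axis) in 3 GCA libraries (red circles, upper line of each row) and 3 PBS libraries (blue squares, lower line), with members grouped by role. Mmp13, Timp2 and Timp1 lie near 300 FPKM in both groups, and the Mmp27 points of GCA stand clear of those of PBS.

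**Figure D2:**
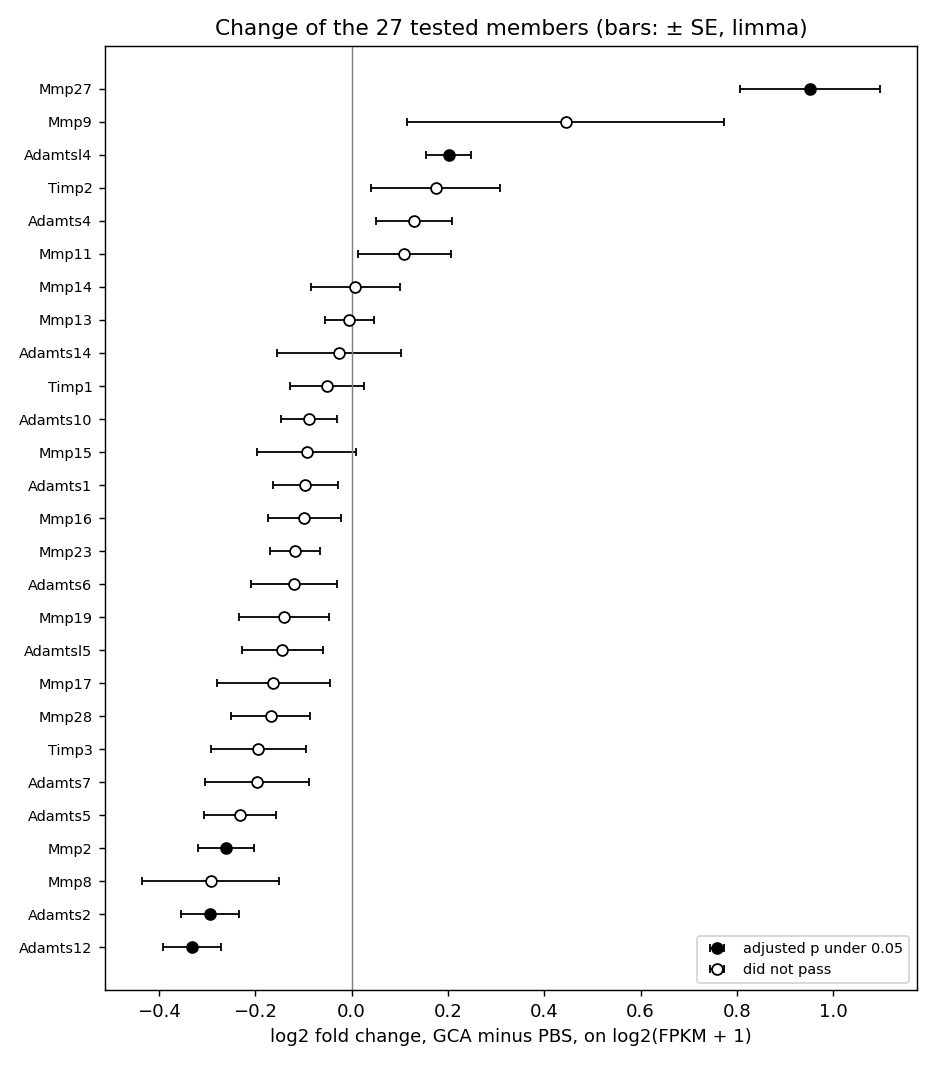
Log2 fold change, GCA minus PBS, of the 27 tested members on the log2(FPKM + 1) scale, with bars of ± 1 SE from limma. Filled points passed an adjusted p of 0.05: Mmp27 lies at 0.95, Adamtsl4 at 0.20, and Mmp2, Adamts2 and Adamts12 between -0.26 and -0.33.

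A cluster of Mmp genes on chromosome 9 (GRCm38) holds the member that moved most. Over 427 kb, from 7272514 to 7699585, it holds 7 members in the order Mmp13, Mmp12, Mmp3, Mmp10, Mmp8, Mmp27 and Mmp7, all on the plus strand. The promoter windows of 5 of them are shown because the cluster spans the most abundant member, Mmp13, the tested member that rose most, Mmp27, and genes below 1 FPKM. They come from RefSeq (GRCm38.p6) and run 5′ to 3′ from 250 bases before to 50 after an annotated start: chr9:7571146-7571445 for Mmp27, chr9:7558179-7558478 for Mmp8, chr9:7445572-7445871 for Mmp3, chr9:7347124-7347423 for Mmp12 (the second of 2 annotated starts) and chr9:7272264-7272563 for Mmp13, on the plus strand. Capitals mark matches on either strand to TGANTCA, the letters bound by AP-1 (the Fos and Jun factors known to drive several MMP genes), and to the TATA box letters TATAAA.
Mmp27: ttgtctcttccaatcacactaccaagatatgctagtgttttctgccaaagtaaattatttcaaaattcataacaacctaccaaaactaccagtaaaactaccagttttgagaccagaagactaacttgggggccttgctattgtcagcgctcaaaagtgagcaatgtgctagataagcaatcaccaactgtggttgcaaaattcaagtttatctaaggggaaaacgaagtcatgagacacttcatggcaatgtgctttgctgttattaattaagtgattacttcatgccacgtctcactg
Mmp8: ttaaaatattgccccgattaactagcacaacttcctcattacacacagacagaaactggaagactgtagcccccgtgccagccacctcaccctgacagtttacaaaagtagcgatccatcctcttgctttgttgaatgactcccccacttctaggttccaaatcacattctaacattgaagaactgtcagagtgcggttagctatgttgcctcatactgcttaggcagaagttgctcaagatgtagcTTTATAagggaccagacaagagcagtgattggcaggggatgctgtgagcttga
Mmp3: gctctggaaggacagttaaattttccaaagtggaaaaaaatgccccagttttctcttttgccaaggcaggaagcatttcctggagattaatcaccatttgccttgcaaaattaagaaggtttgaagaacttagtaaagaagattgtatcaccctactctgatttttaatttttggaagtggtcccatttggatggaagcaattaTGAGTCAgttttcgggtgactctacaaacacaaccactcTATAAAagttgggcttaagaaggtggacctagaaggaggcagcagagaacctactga
Mmp12: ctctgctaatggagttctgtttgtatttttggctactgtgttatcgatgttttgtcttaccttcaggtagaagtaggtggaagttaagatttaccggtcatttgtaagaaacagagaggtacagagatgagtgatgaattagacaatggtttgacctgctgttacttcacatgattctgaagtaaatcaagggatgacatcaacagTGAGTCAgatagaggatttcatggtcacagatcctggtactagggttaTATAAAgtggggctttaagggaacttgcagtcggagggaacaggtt
Mmp13: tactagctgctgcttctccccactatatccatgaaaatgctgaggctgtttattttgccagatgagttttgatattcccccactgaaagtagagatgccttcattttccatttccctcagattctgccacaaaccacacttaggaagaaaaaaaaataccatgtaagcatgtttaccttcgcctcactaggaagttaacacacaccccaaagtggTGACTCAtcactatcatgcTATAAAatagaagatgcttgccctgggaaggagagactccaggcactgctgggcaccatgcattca
The AP-1 letters begin 46 bases before the start in Mmp3, 44 before it in Mmp12 and 35 before it in Mmp13, and the windows of Mmp27 and Mmp8 hold none. TATAAA is in the windows of Mmp13, Mmp3, Mmp12 and, on the minus strand, Mmp8, and not in that of Mmp27. These letters begin 16 bases before the start in Mmp13, 7 before it in Mmp3 and 3 before it in Mmp8. In Mmp12 they lie after the start, from base 5 on. The window at the first annotated start of Mmp12 (chr9:7344147-7344446) holds neither the AP-1 letters nor TATAAA. Windows were found for 33 of the 46 members, 36 windows in all, and 5 of these 36 (13.9%) hold the AP-1 letters, all in this cluster, with Mmp10 and Mmp7 beside the 3 shown. TATAAA is in 9 of the 36 (25.0%). Over all 32851 windows of that length, 7.81% hold the AP-1 letters and 13.62% TATAAA. A match is a description of these letters and not a measured binding site.

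Mmp27 (ENSMUSG00000070323, chromosome 9, 7571396 to 7581885) had the largest change of the tested members. In human endometrium its protein has been found in macrophages, and little is known of its substrates. It stood at 24.7, 17.8 and 26.4 FPKM in GCA replicates 1 to 3, against 10.5, 10.9 and 12.4 FPKM in PBS replicates 1 to 3. The lowest GCA library lay above the highest PBS library, and GCA replicate 2 was the closest of the GCA libraries to PBS. The group means were 23.0 ± 4.52 FPKM in GCA and 11.3 ± 1.01 in PBS (SD, n = 3 each), a 2.04-fold rise. The log2 fold change was 0.95, with an SE of 0.145 and an adjusted p of 0.00721. Without GCA replicate 2 the log2 fold change was 1.12 (SE 0.0757), and it passed under every one of the 17 alternatives run at the threshold of 0.05, with adjusted p-values of 0.000286 to 0.0324.

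The collagenases of the cluster did not pass. Mmp13 (chromosome 9, 7272514 to 7283331), collagenase-3 and the main interstitial collagenase of mouse bone, was the most abundant member. It stood at 331.3, 311.8 and 344.9 FPKM in GCA replicates 1 to 3 and at 334.1, 329.7 and 326.7 FPKM in PBS replicates 1 to 3. The PBS range lay inside the GCA range, and the log2 fold change was -0.0048 (SE 0.0505, adjusted p = 0.962). Mmp8 (chromosome 9, 7558456 to 7568485), known as the neutrophil collagenase, lies directly before Mmp27. It stood at 7.02, 10.3 and 7.67 FPKM in GCA and at 9.21, 11.8 and 10.1 FPKM in PBS, with the highest GCA library inside the PBS range. Its log2 fold change of -0.29 did not pass (adjusted p = 0.208), and without GCA replicate 2 it was -0.44 with an adjusted p of 0.0235. Of the neutrophil markers, 5 were found in the files, and they summed to 2.45 to 5.02 FPKM in GCA and 3.04 to 5.31 in PBS. S100a8, a calcium-binding protein of neutrophils and monocytes, had 1.05, 4.02 and 1.39 FPKM in GCA and 1.98, 3.73 and 2.34 in PBS (adjusted p = 0.625), and like Mmp8 it was highest in replicate 2 of each group. Camp, an antimicrobial peptide of neutrophil granules, had 0.978 to 1.70 FPKM in GCA and 0.941 to 1.53 in PBS. Ly6g, Mpo and Elane, which define neutrophils and their precursors, were at 0.0569 FPKM or less in GCA and 0.111 or less in PBS. The part of neutrophils in the Mmp8 values was not tested.

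The other genes of the cluster were low. Mmp12, the macrophage metalloelastase, had 0.0542, 0.102 and 0.0519 FPKM in GCA and 0.227, 0.236 and 0.225 FPKM in PBS, which is 7, 13 and 7 fragments in GCA and 30, 31 and 29 fragments in PBS. Mmp3, stromelysin-1, an activator of other MMPs, had 2, 7 and 3 fragments in GCA and 13, 18 and 11 fragments in PBS. In both genes every GCA library lay below every PBS library, and GCA replicate 2 was again the closest to PBS. Both were below the filter and outside the main test. In a fit on the recovered fragments (limma-voom) that admitted genes down to a mean of 0.1 FPKM, chosen after these values were seen, Mmp12 had a log2 fold change of -1.74 (adjusted p = 0.0021) and Mmp3 one of -1.82 (adjusted p = 0.0201). That fit called 2763 of its 18366 genes, or 15%, with 5.83% lower with GCA, and 8 of its 34 members, 6 of them lower. With the same filter on log2(FPKM + 1), where the pseudocount outweighs such levels, neither passed (adjusted p = 0.118 for Mmp12 and 0.0688 for Mmp3). Mmp10, stromelysin-2, had 4 to 8 fragments in GCA and 6 to 9 in PBS, and Mmp7, matrilysin, had 1, 0 and 1 fragments in GCA and none in PBS.

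**Figure D3:**
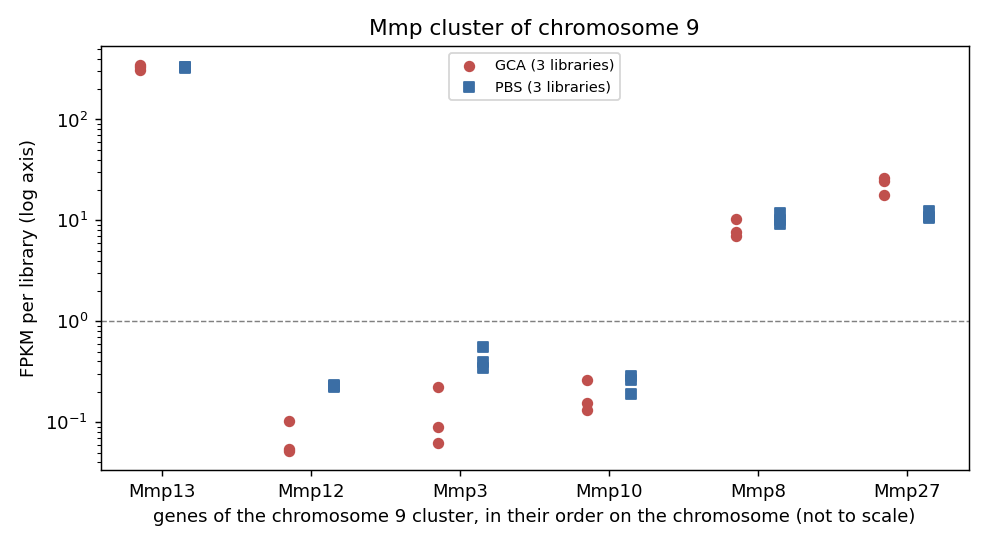
FPKM (log axis) of 6 Mmp genes of the chromosome 9 cluster in their order on the chromosome, not to scale, in 3 GCA libraries (red circles) and 3 PBS libraries (blue squares); Mmp7, at 0 in most libraries, is left out and the dashed line marks the filter at 1 FPKM. Mmp13 overlaps near 330 FPKM, Mmp27 is higher with GCA, and Mmp12 and Mmp3 are lower with GCA at levels under 1 FPKM.

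Of the gelatinases, Mmp2 fell and Mmp9 did not pass. Mmp2 (ENSMUSG00000031740, chromosome 8, 92827291 to 92853420), gelatinase A, is made by stromal cells and degrades denatured collagen and collagen IV. It fell to 122.0, 127.5 and 124.7 FPKM in GCA, against 161.7, 141.9 and 145.9 FPKM in PBS, and the groups did not overlap. The means were 125 ± 2.77 FPKM in GCA and 150 ± 10.5 in PBS (SD, n = 3 each), a ratio of 0.832. The log2 fold change was -0.26, with an SE of 0.0575 and an adjusted p of 0.0179. Leaving out GCA replicate 1 or GCA replicate 3 ended the call, with adjusted p = 0.0649 and 0.0513 at a log2 fold change of -0.24 and -0.26. Mmp9 (chromosome 2, 164940780 to 164955850), gelatinase B, a product of osteoclasts, macrophages and neutrophils, had 2.58, 2.87 and 0.667 FPKM in GCA and 1.21, 1.03 and 1.05 FPKM in PBS. GCA replicate 3 lay below all PBS libraries and the other GCA libraries above them, so the groups overlapped and Mmp9 did not pass (log2 fold change 0.44, SE 0.33, adjusted p = 0.407). Without GCA replicate 3 the log2 fold change was 0.83 with an adjusted p of 0.00315. Of 8 osteoclast markers 4 were tested, 2 rose with GCA and none fell, and the list summed to 119.5 to 149.1 FPKM in GCA and 112.9 to 122.4 in PBS. Atp6v0d2, a proton pump subunit of osteoclasts, had 3.73, 2.25 and 3.36 FPKM in GCA and 1.47, 1.72 and 1.94 in PBS (adjusted p = 0.0279, and 0.0547 to 0.0941 without any 1 library other than GCA replicate 2). Nfatc1, a transcription factor of osteoclast formation, had 7.22, 7.67 and 7.09 FPKM in GCA and 5.93, 6.08 and 6.26 in PBS (adjusted p = 0.0215, and 0.0506 to 0.0659 without any 1 library other than GCA replicate 3). Acp5 had 36.1, 75.5 and 32.4 FPKM in GCA and 29.9, 31.1 and 32.1 in PBS and Ctsk 63.1 to 77.1 in GCA and 75.2 to 83.3 in PBS, and neither passed, while Calcr was at 0.0574 FPKM or less in every library. The part of osteoclast-type cells in the Mmp9 values was not tested.

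MMP-2 is activated at the cell surface by a complex of membrane-type 1 MMP (Mmp14) and TIMP-2, and these partners did not pass. Mmp14 (chromosome 14, 54431612 to 54445364) stood at 103.2, 90.2 and 92.4 FPKM in GCA and at 108.6, 90.8 and 85.8 FPKM in PBS, with the GCA range inside the PBS range and an adjusted p of 0.968. Timp2 (chromosome 11, 118301069 to 118355740) stood at 330.5, 280.2 and 412.6 FPKM in GCA and at 314.2, 282.1 and 299.4 FPKM in PBS. GCA replicate 3 was the highest Timp2 library and GCA replicate 2 the lowest, so the spread within GCA was wider than the difference between groups (log2 fold change 0.17, SE 0.134, adjusted p = 0.414). Among the other membrane-type enzymes, Mmp15, Mmp16 and Mmp17 averaged 0.916 to 1.22 FPKM in GCA and 1.13 to 1.37 in PBS, and none passed. Mmp16 alone of these had all GCA values (0.969, 0.993 and 1.00 FPKM) below all PBS values (1.13, 1.12 and 1.14), with a log2 fold change of -0.10 and an adjusted p of 0.407. Mmp24 and Mmp25 stayed at 0.179 FPKM or less.

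The other inhibitors did not pass either. Timp1 (chromosome X, 20870166 to 20874735), a secreted inhibitor of most MMPs, stood at 296.1, 267.2 and 285.1 FPKM in GCA and at 268.0, 325.7 and 287.4 FPKM in PBS, with the GCA range inside the PBS range but for its lowest library (adjusted p = 0.685). Timp3, the matrix-bound inhibitor that also blocks aggrecanases, had 12.5, 9.24 and 11.4 FPKM in GCA and 13.5, 12.4 and 12.2 in PBS (log2 fold change -0.19, adjusted p = 0.219). Timp4 was at 0.0748 FPKM or less in every library. The summed level was 635 ± 76.3 FPKM for the 4 Timp genes in GCA and 605 ± 13.3 in PBS, and 655 ± 16.3 FPKM for the 20 Mmp genes in GCA and 676 ± 24.8 in PBS (SD, n = 3 each). The sums of the groups overlapped in both cases. The 17 Adamts genes summed to 121.8 to 124.0 FPKM in GCA and 128.6 to 149.4 in PBS, without overlap. As a share of all FPKM in a library the Adamts sum was 0.0329% to 0.0365% in GCA and 0.0344% to 0.0434% in PBS, and these overlapped.

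The remaining MMPs with a level above 1 FPKM were Mmp23, Mmp19, Mmp11 and Mmp28. Mmp23, a small membrane-anchored MMP, had 35.7, 34.6 and 35.1 FPKM in GCA and 39.3, 35.8 and 39.7 in PBS, so that the groups just missed each other (log2 fold change -0.12, adjusted p = 0.158). Mmp19, which cuts basement membrane proteins, had 23.9, 31.7 and 26.0 FPKM in GCA and 29.0, 30.3 and 30.4 in PBS. GCA replicate 2 was the highest library of all for Mmp19, and without it the log2 fold change was -0.25 with an adjusted p of 0.02, against -0.14 and 0.343 with all libraries. Mmp11, stromelysin-3, averaged 4.55 ± 0.49 FPKM in GCA and 4.16 ± 0.55 in PBS, and Mmp28, epilysin, 1.38 ± 0.12 in GCA and 1.67 ± 0.16 in PBS (SD, n = 3 each), with adjusted p = 0.473 and 0.201. In Mmp19, 22.3% of the exon length is shared with Tmem198b on the opposite strand, and the deposited values do not say how such reads were assigned. Mmp21, a gene of left-right patterning, was at 0.0421 FPKM or less.

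Among the ADAMTS proteases the procollagen N-proteinases come first, the enzymes that remove the amino-terminal propeptide so that fibrils can form. Adamts2 (ENSMUSG00000036545, chromosome 11, 50602084 to 50807573) fell to 12.2, 13.2 and 12.6 FPKM in GCA, against 17.0, 15.03 and 15.4 FPKM in PBS, with no overlap. The means were 12.7 ± 0.51 FPKM in GCA and 15.8 ± 1.06 in PBS (SD, n = 3 each), a ratio of 0.804. Its log2 fold change was -0.29, with an SE of 0.0599 and an adjusted p of 0.0134. The call held on leaving out each library in turn and was lost with no filter on low values (adjusted p = 0.0542), where 27263 genes were tested. Adamts14, of the same type, had 6.25, 3.96 and 5.45 FPKM in GCA and 5.47, 5.09 and 5.21 in PBS, with GCA libraries on both sides of PBS and an adjusted p of 0.917. Adamts3 was at 0.192 FPKM or less. Among genes that are not members, Bmp1, the enzyme that removes the other procollagen propeptide, was at 48.2 ± 2.29 FPKM in GCA and 58.8 ± 3.87 in PBS (log2 fold change -0.28, adjusted p = 0.0164, and 0.0595 without GCA replicate 1). Of the procollagens, Col3a1 fell to 171 ± 13.6 FPKM in GCA, against 244 ± 18.3 in PBS (adjusted p = 0.00361). Col1a1 stood at 1149 ± 53.8 FPKM in GCA and 1333 ± 94.6 in PBS, which did not pass (adjusted p = 0.0578). Col1a2 fell, averaging 480 FPKM in GCA and 576 in PBS (adjusted p = 0.0289). Its adjusted p was 0.0529 to 0.0905 without GCA replicate 1, 2 or 3 or PBS replicate 2. Col5a1 also fell (adjusted p = 0.0164, and 0.0542 to 0.0597 without GCA replicate 1 or PBS replicate 2). Col2a1 rose, averaging 7.29 FPKM in GCA and 4.16 in PBS (adjusted p = 0.00575).

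Adamts12 (ENSMUSG00000047497, chromosome 15, 11064790 to 11349231) had the smallest adjusted p of the ADAMTS genes. With Adamts7 it forms the pair known to cut cartilage oligomeric matrix protein. Adamts12 fell to 8.64, 8.30 and 9.43 FPKM in GCA, against 11.4, 11.7 and 10.8 FPKM in PBS, and every GCA library was below every PBS library. The means were 8.79 ± 0.58 FPKM in GCA and 11.3 ± 0.43 in PBS (SD, n = 3 each), a ratio of 0.777. Its log2 fold change was -0.33, with an SE of 0.0596 and an adjusted p of 0.00833. It passed under all 17 alternatives at the threshold of 0.05, with adjusted p-values from 0.000192 to 0.0372. Adamts7 had 1.19, 1.46 and 1.43 FPKM in GCA and 2.12, 1.46 and 1.57 in PBS, with overlap and an adjusted p of 0.248. Comp, the gene of that substrate, had 2.85, 3.11 and 2.75 FPKM in GCA and 2.44, 1.89 and 2.34 in PBS, which did not pass (adjusted p = 0.0575).

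The proteoglycanases, which cut aggrecan and versican, were led by Adamts1 and Adamts5, neighbours on chromosome 16. Adamts1 (85793827 to 85803113) had 61.1, 59.9 and 59.8 FPKM in GCA and 71.6, 63.0 and 59.5 in PBS, with overlap at the low end (adjusted p = 0.364). Adamts5 (85856173 to 85901828), the main aggrecanase of mouse cartilage, had 18.7, 21.1 and 21.03 FPKM in GCA and 26.2, 23.7 and 22.1 in PBS. The Adamts5 groups did not overlap, and it missed the threshold (log2 fold change -0.23, SE 0.0745, adjusted p = 0.0662). It passed on recovered fragments with limma-voom (adjusted p = 0.0196) and with the filter at a mean of 5 FPKM (0.0431). Adamts4 had 4.10, 4.41 and 4.18 FPKM in GCA and 4.32, 3.64 and 3.42 in PBS (adjusted p = 0.298). Adamts9, which cuts versican, was below the filter at 0.454, 0.443 and 0.467 FPKM in GCA and 0.627, 0.520 and 0.581 in PBS, and its groups did not overlap. Versican itself (Vcan) was at 32.6 ± 2.72 FPKM in GCA and 42.2 ± 3.33 in PBS (adjusted p = 0.0148). Adamts15 and Adamts20 had at most 7 fragments in a library.

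Members linked to fibrillin microfibrils were Adamts6, Adamts10 and the ADAMTSL proteins. Adamtsl4 (ENSMUSG00000015850, chromosome 3, 95676201 to 95687917), which binds fibrillin-1 and is known from inherited lens displacement in human, rose to 22.2, 23.0 and 23.8 FPKM in GCA, against 20.2, 19.5 and 19.96 FPKM in PBS. All GCA libraries were above all PBS libraries and the step was small. The means were 23.0 ± 0.81 FPKM in GCA and 19.9 ± 0.39 in PBS (SD, n = 3 each), a 1.16-fold rise. Its log2 fold change was 0.20, with an SE of 0.0465 and an adjusted p of 0.0212. The call was lost without GCA replicate 3 (adjusted p = 0.0663), PBS replicate 2 (0.0756) or PBS replicate 3 (0.0678). Adamtsl5 had 7.95, 6.80 and 7.996 FPKM in GCA and 9.47, 8.11 and 7.88 in PBS (adjusted p = 0.276). Adamts10 averaged 7.04 ± 0.081 FPKM in GCA and 7.56 ± 0.50 in PBS, and Adamts6 1.89 ± 0.27 in GCA and 2.14 ± 0.16 in PBS (SD, n = 3 each), and neither passed (adjusted p = 0.333 and 0.390). Fbn1, the gene of fibrillin-1, fell, with a log2 fold change of -0.53 (adjusted p = 0.00499). Adamtsl1 and Adamtsl3 were below the filter, at 0.155 and 0.592 FPKM on average in GCA and 0.231 and 0.714 in PBS, and Adamtsl2 was at 0.0134 FPKM or less.

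**Figure D4:**
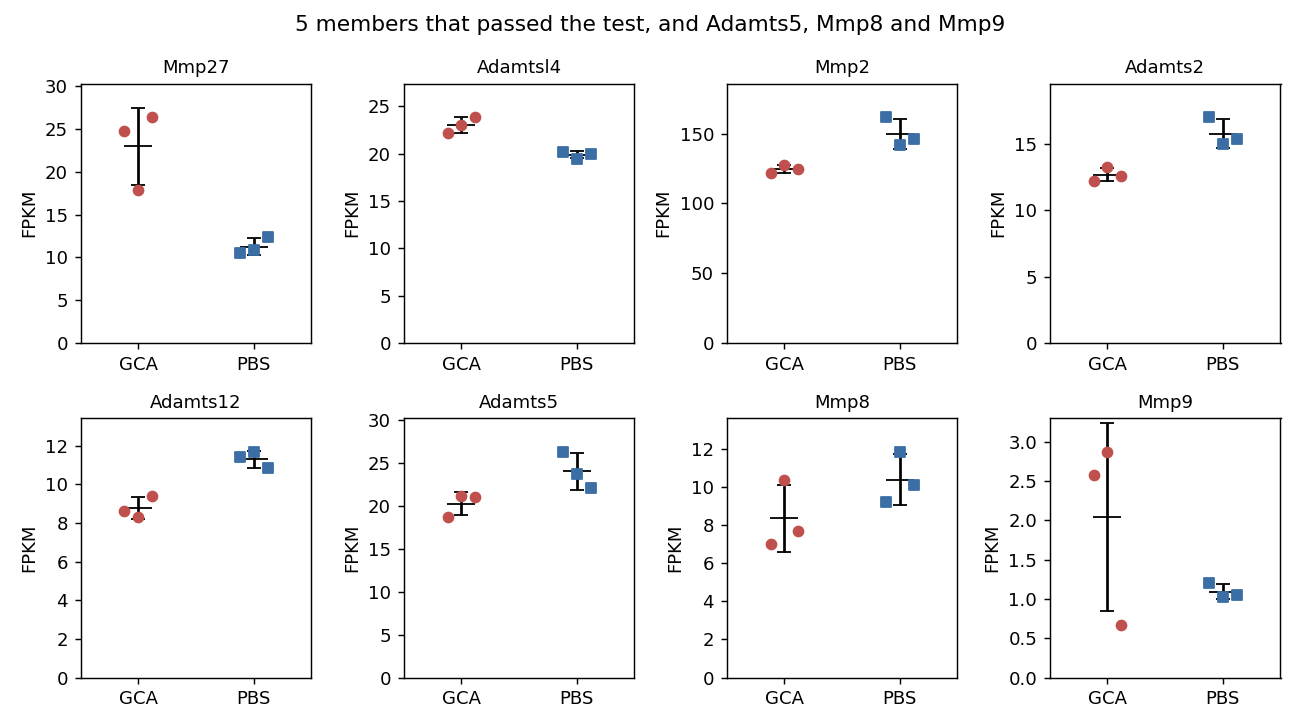
FPKM per library in GCA (red circles, left) and PBS (blue squares, right) for the 5 members that passed and for Adamts5, Mmp8 and Mmp9, with the mean and ± SD (n = 3 each) in black. The groups are apart for Mmp27, Adamtsl4, Mmp2, Adamts2, Adamts12 and Adamts5. They overlap for Mmp8, with 1 GCA library among the PBS libraries and the others below. They also overlap for Mmp9, with 1 GCA library below the PBS libraries and the others above.

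Of the 27 tested members, 8 had groups that did not overlap, 2 higher and 6 lower with GCA, which is 29.6% against 38.5% of all genes tested. These were the 5 that passed, with Adamts5, Mmp23 and Mmp16. No member was listed at 0 in all 6 libraries, and 7 were at 0 in at least 1 library. Among the 19 members below the filter, 5 had groups apart, beside 9.74% of the 15279 genes below it (5.47% higher and 4.27% lower with GCA): Mmp3, Mmp12, Adamts9 and Adamtsl1 were lower with GCA, and Adamts15 was higher with 2 fragments in each GCA library and 1, 0 and 0 in PBS. With a mean of at least 0.1 FPKM but below the filter, 4 of 7 members had groups apart, beside 15.5% of 6405 genes. Adamts13, the protease of von Willebrand factor, and Adamts16, Adamts17 and Adamts18 were at 0.129 FPKM or less in every library.

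The levels were uneven. Mmp13, Timp2, Timp1 and Mmp2 were above 100 FPKM on average over the 6 libraries, 10 further members lay between 10 and 100 FPKM, and 13 between 1 and 10. Mmp13, Timp2 and Timp1 held 64.9% of the summed mean FPKM of the 46 members, and 80.9% with Mmp2 and Mmp14. The ranges of Mmp13, Timp2 and Timp1 over the 6 libraries overlapped. Compared within each library, Mmp13 was above Timp1 in all 6. The order of Timp2 against Mmp13 and against Timp1 differed between libraries.

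Genes that act with these families were read from 5 lists. The list of ADAM sheddases and astacin proteases also holds other metalloproteases, Mme, Ece1 and Phex. Of its 12 tested genes 2 rose and 2 fell, with a median log2 fold change of -0.12. Mme and Ece1 were among those tested and did not pass. Adam33, a membrane-anchored protease, had 6.11, 6.35 and 5.73 FPKM in GCA and 3.66, 2.33 and 2.94 in PBS (log2 fold change 0.84, adjusted p = 0.00305). Adam8, a sheddase of myeloid cells and osteoclasts, had 342.2, 325.6 and 346.4 FPKM in GCA and 283.8, 281.7 and 286.3 in PBS (adjusted p = 0.0082). Bmp1 fell as given above, and its relative Tll1, at 1.94 ± 0.33 FPKM in GCA and 2.80 ± 0.12 in PBS, fell with an adjusted p of 0.0256, which was 0.0671 without GCA replicate 1 and 0.0585 to 0.0825 without PBS replicates 1, 2 or 3.

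The list of serine and cysteine proteases also holds Hpse (heparanase) and the receptor Plaur, which are not proteases. Of its 15 tested genes 4 rose, Hpse among them, and 3 fell, with a median of -0.10. Hpse was at 43.3 ± 10.6 FPKM in GCA and 20.6 ± 1.16 in PBS (adjusted p = 0.0188). Its adjusted p was 0.0597 to 0.0657 without GCA replicate 1, PBS replicate 2 or PBS replicate 3. The smallest p-values were those of lysosomal enzymes, legumain (Lgmn) at 946 ± 38.2 FPKM in GCA and 702 ± 33.7 in PBS (adjusted p = 0.00221) and cathepsin H (Ctsh) at 74.7 ± 3.02 FPKM in GCA and 57.0 ± 2.23 in PBS (0.00238). Cathepsin B (Ctsb) was at 1993 ± 173 FPKM in GCA and 1525 ± 55.4 in PBS (adjusted p = 0.00948, and 0.112 after quantile normalization). Cathepsins S (Ctss), L (Ctsl) and K (Ctsk) did not pass (adjusted p = 0.395, 0.213 and 0.283). Ctss was at 1659 ± 107 FPKM in GCA and 1782 ± 151 in PBS. Ctsl was at 129 ± 7.50 FPKM in GCA and 139 ± 6.17 in PBS. The serine protease Prss23 fell to 16.9 ± 1.52 FPKM in GCA, against 24.6 ± 1.37 in PBS (adjusted p = 0.00279). Macrophages express Lgmn, Ctsh and Ctsb. In the macrophage marker list of 15 tested genes 7 rose, 1 fell and 7 did not pass. Cd68 was at 944 ± 105 FPKM in GCA and 614 ± 13.4 in PBS, and Lyz2 at 8879 ± 806 in GCA and 13518 ± 814 in PBS. After quantile normalization 6 of the 15 were higher and none lower: the fall of Lyz2 no longer passed (log2 fold change -0.11, adjusted p = 0.438, against -0.61 before), nor did the rise of the complement gene C1qb (0.078, adjusted p = 0.368, against 0.38 before). Quantile normalization gives each rank the same value in every library. It can shrink changes of genes as abundant as Lyz2 and C1qb, so it cannot decide whether those genes changed. The part of macrophages in the rise of Mmp27 and of Lgmn, Ctsh and Ctsb was not tested.

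In the list of other inhibitors and clearance receptors none of 11 tested genes rose and 3 fell, with a median of -0.15. Lrp1, the endocytic receptor that clears MMPs, ADAMTS proteases and TIMPs, was at 102 ± 3.54 FPKM in GCA and 124 ± 5.74 in PBS (adjusted p = 0.00865). Mrc2, the receptor that takes up collagen fragments, was at 28.3 ± 0.51 in GCA and 33.6 ± 1.26 in PBS (0.011), and the serpin Serpine2 at 44.1 ± 1.08 in GCA and 52.4 ± 1.71 in PBS (0.00992). Spock2, a testican, had 1.31 ± 0.053 FPKM in GCA and 0.953 ± 0.077 in PBS and did not pass (adjusted p = 0.0678). Reck, the membrane inhibitor of MMPs, averaged 3.05 FPKM in GCA and 3.10 in PBS and did not pass.

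In the list of matrix substrates 10 of 19 tested genes fell, 1 rose (Col2a1) and 8 did not pass, with a median of -0.26. The basement membrane collagens had the smallest p-values: Col4a1 was at 73.4 ± 2.38 FPKM in GCA and 114 ± 6.69 in PBS, and Col4a2 at 49.4 ± 1.48 in GCA and 78.9 ± 5.46 in PBS, both with an adjusted p of 0.000495. Lamb1, a laminin chain, was at 16.7 ± 0.99 FPKM in GCA and 23.4 ± 1.39 in PBS (0.00249), and fibronectin (Fn1) at 359 ± 15.2 in GCA and 487 ± 34.7 in PBS (0.00321). The stromal marker list, which shares collagens with this list, had 4 of 11 tested genes lower and none higher, and its summed level was 2291 to 2461 FPKM in GCA and 2768 to 3085 in PBS. The collagens Col1a1, Col1a2 and Col3a1 together with Postn made up most of that sum. Of the other tested stromal markers, Pdgfrb fell, while Pdgfra, Dcn, Lum, Thy1, Fap and Cxcl12 did not pass. The part of the number of stromal cells in the falls of Mmp2, Adamts2 and Adamts12 was not tested.

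In the list of regulators known to act on MMP genes 2 of 16 tested genes rose and 2 fell, with a median of -0.09. The cytokine Il1a had 4.26, 2.83 and 2.45 FPKM in GCA and 0.333, 0.642 and 0.284 in PBS (adjusted p = 0.00132). It met the filter of 1 FPKM only through its GCA values, as its PBS mean was 0.42 FPKM. Tgfb1 averaged 44.2 ± 1.67 FPKM in GCA and 37.4 ± 0.67 in PBS (adjusted p = 0.0118, and 0.0524 without PBS replicate 3). The transcription factor Ets2 was at 14.0 ± 4.11 FPKM in GCA and 28.2 ± 3.72 in PBS (adjusted p = 0.0379, and 0.086 to 0.0981 without GCA replicate 1 or any PBS library). Bsg, the MMP inducer CD147, was at 223 ± 7.47 in GCA and 248.9 ± 5.49 in PBS (adjusted p = 0.0473, which was 0.0571 to 0.152 on leaving out each library in turn and 0.083 after quantile normalization). The AP-1 genes Fos, Fosl1, Fosl2, Jun, Junb and Jund did not pass, with log2 fold changes from -0.14 to 0.068.

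**Figure D5:**
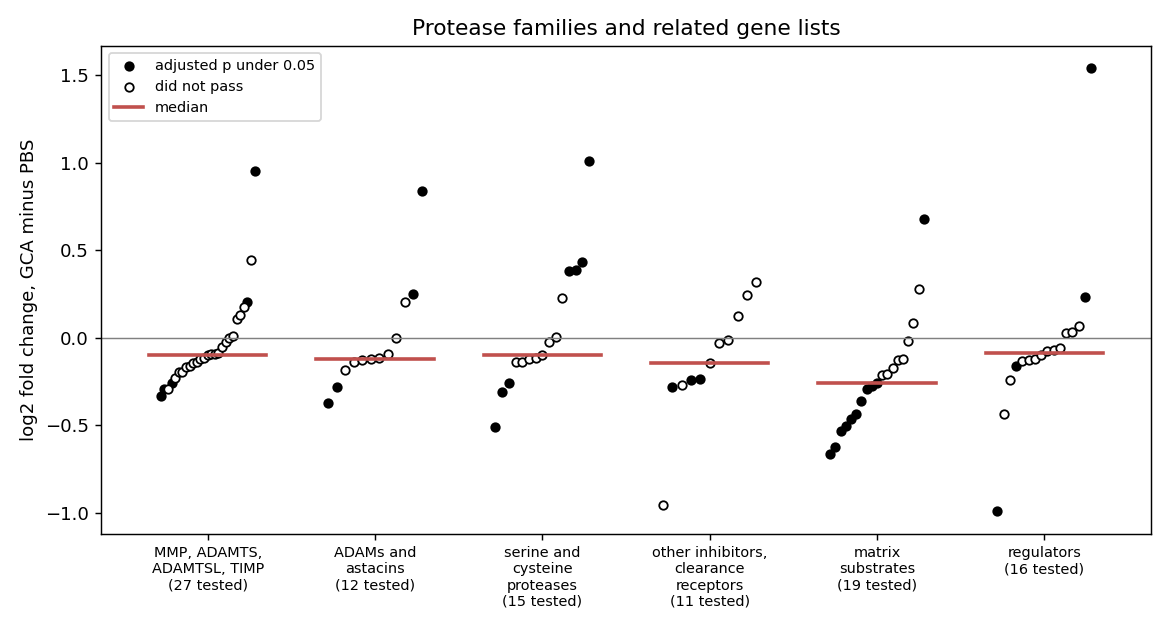
Log2 fold change, GCA minus PBS, of each tested gene in the families and in 5 lists of genes that act with them; filled points passed an adjusted p of 0.05 and red lines are medians. The median is -0.10 for the families and -0.26 for the matrix substrates, and Mmp27 is the topmost point of the families.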

How the data were processed

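Gene expression was measured by RNA sequencing (paired-end, with reads of 150 bp per the labels) in 3 GCA and 3 PBS libraries. The deposited values have no named unit. The authors' deposited values were read as FPKM from the numbers themselves: times the GENCODE M21 exon-union length, 90.8% to 91.0% of values above 0 per library are whole fragments within 0.02, over 1 total per library. Per the submitters' processing notes, the tools and builds include Bowtie 0.12.2, mm8 and mm9. No source used here names a counting tool or annotation. Coordinates are GENCODE M21 (GRCm38), attached by identifier for 27204 of 27263 genes. With these totals, 1 fragment over 2 kb of exon equals 0.0268 to 0.0285 FPKM, so the lowest members rest on few fragments.

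The main test was limma-trend with robust moderation (limma 3.58.1, R 4.3.3) on log2(FPKM + 1), two-sided, treatment only, with Benjamini-Hochberg adjustment over genes averaging 1 FPKM or more. Fold changes on that scale understate changes of low genes. On simulated data the step called 73% of genes changed 1.5-fold, 87% of those changed 2-fold and 0.0849% of unchanged genes. There 11784 of 11984 genes were unchanged and 100 were changed at each fold, while 2151 genes were called in the real data. The adjustment depends on how many genes change, so these shares may not carry over. Smaller changes, such as those of the members that passed other than Mmp27, were not simulated. Alternatives were the replicate block, 2 scalings, other filters, pseudocounts, moderation and threshold, limma-voom on recovered fragments (library sizes from summed fragments; 5 members without whole fragments were rounded) and leaving out each library. Members and lists were chosen with earlier results of these data known. Members that passed, and the 5 most abundant, were named with all values, and up to 4 genes of each list by smallest p. Substrate genes set beside a member, Reck, the AP-1 genes, all other list genes named and the cell type markers were named after their values were seen. Plots used matplotlib 3.10.9.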

Additional observations from a re-analysis of the deposited data

How the results depend on the processing

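Mmp27 and Adamts12 passed under every alternative at the threshold of 0.05, and all 5 members that passed kept their direction throughout. Testing every gene with no filter left 735 genes higher and 340 lower with GCA, and 1 member higher (Mmp27) and 1 lower (Adamts12); more genes are tested there. A threshold of 0.01 gave 591 higher and 246 lower, with the same 1 and 1 members. Limma-voom on recovered fragments with the filter at a mean of 0.1 FPKM, chosen after seeing the data, called 1692 genes higher and 1071 lower of 18366, and 2 members higher and 6 lower of 34, Mmp12, Mmp3 and Adamts5 among the lower. Leaving out each library gave 842 to 1317 higher and 390 to 771 lower genes, and 1 to 2 members higher and 2 to 5 lower. The 5 were reached without GCA replicate 2, with Mmp8 and Mmp19 added; Mmp9 joined the higher members without GCA replicate 3, where Adamtsl4 was lost.

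Values near 0 changed sign without passing, and the cause was not tested. Mmp13 was 0.028 after quantile normalization and -0.039 to 0.034 on leaving out each library. Timp1 was -0.11 to 0.026, Adamts14 -0.15 to 0.13 and Mmp14 -0.062 to 0.11 on leaving out each library. Mmp14 was also -0.027 after quantile normalization and -0.0053 after median centring.

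The replicate numbers are only names in the labels. Same-numbered libraries had deviations from their group means that correlated at 0.082, 0.029 and 0.068 across genes, under the 0.1 taken as pairing, though each library correlated best with its own number. With the replicate block 1334 genes were higher and 760 lower, with 2 members higher and 4 lower, Mmp8 being added (adjusted p = 0.0203).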
